A study of Mus musculus with 18 samples.

Results

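The genes described here are 5 secreted fibroblast growth factors (FGFs), Fgf3, Fgf4, Fgf8, Fgf17 and Fgf18, and 5 genes that FGF signalling is known to switch on, Spry2, Spry4, Dusp4, Dusp6 and Etv4. They were chosen by symbol, with earlier results of these data known. Each is the 1 row of the deposited gene table whose Ensembl identifier carries that symbol. All 10 of the 10 were found among 53465 gene identifiers.

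The study measured polyadenylated RNA in dissected pieces of mouse embryos at embryonic day 9. Each of 9 embryos gave an anterior piece, holding the older somites and the rest of the somite-bearing axis, and a posterior piece, holding the axial bud and the most recently formed somites, so that there were 18 libraries in 4 groups. The mutants, called double knockout (DKO) in what follows, carried conditional deletions of Meis1 and Meis2, which encode homeodomain transcription factors of the TALE class, made with a Cre recombinase named after Delta1 (the Notch ligand gene Dll1). The stated purpose was to find Meis targets in the patterning of the axial skeleton along the head-to-tail axis. The 5 control embryos were labelled only as controls, with no allele or Cre status given, and had 23, 20, 24, 21 and 23 somites in the order of their numbers 1 to 5. The 4 DKO embryos had 22, 24, 20 and 23 somites in the order 1 to 4. Dll1 is active in the presomitic mesoderm and in some neural progenitors, so that cells outside the Cre domain in both pieces can keep intact Meis genes, and each library is the RNA of a whole piece.

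FGFs are secreted signals that bind receptor tyrosine kinases with the help of heparan sulfate and activate the RAS and ERK kinase cascade. In the elongating vertebrate body they are made mainly in the axial bud and the posterior presomitic mesoderm, where the signal is highest, and their fall towards the anterior sets where new somites are laid down, opposed by retinoic acid made in the somites. ERK activity in turn switches on genes of its own inhibitors, among them the Sprouty proteins and dual-specificity phosphatases, and ETS transcription factors of the Etv4 group, so these genes are widely read as a trace of recent FGF signalling.

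Library totals, in units of 1000000 expected counts, ran from 12.7 to 38.2, with a median of 19.98. Values are given as counts per 1000000 scaled by TMM factors over all 18 libraries (CPM), and 3 counts, taken as the floor, corresponded to 0.0791 to 0.233 CPM depending on the library. Meis1 and Meis2 transcripts were counted over the whole gene and were lower in DKO by their means in both pieces, at 57.5 ± 11.8 (SD, n = 4) against 84.5 ± 15.2 CPM (SD, n = 5) for Meis1 in the posterior piece, with overlapping ranges, and at 99.5 ± 11.3 against 143 ± 16.8 CPM for Meis2. Both libraries of control embryo 1, labelled female, held more than 50 CPM of Y-linked transcripts, and leaving that embryo out changed no call among the 10 genes. Markers of the axial bud and presomitic mesoderm (10 genes, among them T, Tbx6 and Wnt3a) summed to 30.3 to 40.5 CPM in anterior control, 37.5 to 55.5 in anterior DKO, 371 to 663 in posterior control and 416 to 730 CPM in posterior DKO libraries, with Msgn1 at or below the floor in both anterior groups. Head neural markers (6 genes), which would mark the isthmus as another FGF source, summed to 0.172 to 1.36 CPM in anterior and 1.44 to 2.19 CPM in posterior controls. In DKO they summed to 0.83 to 1.39 CPM anteriorly and 0.694 to 2.24 CPM posteriorly. Otx2 was at or below the floor in all 4 groups, and En2 in the anterior groups only. The 1 head marker tested between the pieces of controls was called higher posteriorly (log2 4.89), and 0 of 2 tested were called in DKO.

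Promoter sequences in the RefSeq table for GRCm38.p6 matched 5 of the 10 genes (Fgf3, Fgf4, Fgf18, Spry2 and Dusp6). The 250 bases upstream of the RefSeq start of all 5 are shown, since each of these genes was called higher in the posterior piece of controls. They lie at chr7:144838362-144838611 (plus strand, Fgf3), chr7:144861136-144861385 (plus strand, Fgf4), chr11:33147401-33147650 (minus strand, Fgf18), chr14:105896820-105897069 (minus strand, Spry2) and chr10:99262981-99263230 (plus strand, Dusp6), each written 5′ to 3′ on the strand of its gene, with the matched motif letters in capitals.
Fgf3: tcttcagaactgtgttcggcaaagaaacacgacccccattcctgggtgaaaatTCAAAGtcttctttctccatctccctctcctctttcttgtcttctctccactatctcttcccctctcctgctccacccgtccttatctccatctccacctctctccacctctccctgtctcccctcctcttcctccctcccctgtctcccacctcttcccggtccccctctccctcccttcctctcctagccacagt
Fgf4: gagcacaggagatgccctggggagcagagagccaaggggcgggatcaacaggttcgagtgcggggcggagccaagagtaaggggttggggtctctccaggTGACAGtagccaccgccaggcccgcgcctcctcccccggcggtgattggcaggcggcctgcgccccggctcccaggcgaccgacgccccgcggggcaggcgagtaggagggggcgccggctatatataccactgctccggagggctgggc
Fgf18: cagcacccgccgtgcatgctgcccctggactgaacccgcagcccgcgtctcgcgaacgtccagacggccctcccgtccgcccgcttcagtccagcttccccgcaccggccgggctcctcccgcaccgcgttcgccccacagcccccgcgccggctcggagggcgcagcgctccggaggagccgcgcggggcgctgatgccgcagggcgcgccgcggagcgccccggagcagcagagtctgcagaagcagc
Spry2: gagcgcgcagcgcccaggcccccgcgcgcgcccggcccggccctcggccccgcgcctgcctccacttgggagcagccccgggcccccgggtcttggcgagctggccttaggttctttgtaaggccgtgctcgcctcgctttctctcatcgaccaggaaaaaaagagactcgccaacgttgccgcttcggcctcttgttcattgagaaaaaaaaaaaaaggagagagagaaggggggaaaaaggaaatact
Dusp6: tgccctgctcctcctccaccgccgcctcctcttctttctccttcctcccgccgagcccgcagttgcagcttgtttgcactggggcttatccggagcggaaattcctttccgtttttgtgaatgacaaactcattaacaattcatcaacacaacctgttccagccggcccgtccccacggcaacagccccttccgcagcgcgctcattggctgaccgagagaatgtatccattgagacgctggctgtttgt

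The capitals in Fgf4 are the core letters TGACAG bound by MEIS proteins, at bases -150 to -145 from the RefSeq start. These letters, searched on both strands, were in 15.9% of all 32851 windows of 250 bases in the table. The capitals in Fgf3 are TCAAAG, the reverse complement of the TCF/LEF core CTTTGA, at bases -197 to -192, and that core was in 13.8% of all windows. None of the 5 windows held the CDX letters TTTATNG (9.81% of all windows), the ETS letters CCGGAAG (6.91%), the T-box letters AGGTGTNA (2.68%) or the retinoic acid receptor direct repeat, a pair of AGGTCA in 1 direction with 5 bases between (0.00913%). The RefSeq start of Fgf4 lies 14019 bases, and that of Fgf3 529 bases, inside the GENCODE gene model counted here, so these windows describe 1 start of each gene.

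All 10 genes were higher in the posterior than in the anterior piece of control embryos, and 9 of the 10 in DKO embryos, at an adjusted p under 0.05 in edgeR's quasi-likelihood test. These fits held no term for the embryo, and adding the embryo as block changed none of these calls. The genes and marker lists were chosen with earlier results of these data known. Their counts and medians are therefore set beside those of all genes as a description only. Over all genes tested in the controls, 25.4% were called, 12.1% as higher in the posterior piece. In DKO embryos 18.5% of all genes tested were called, 8.76% as higher in the posterior piece. The median log2 fold change of the 10 genes was 2.32 in controls and 2.65 in DKO, against -0.0069 and 0.011 over all genes tested. The groups did not overlap for 9 of the 10 genes in either genotype, all but Fgf4, where 20.1% of all genes in controls and 23.6% in DKO did not overlap, 9.44% and 10.9% with the posterior piece higher. Bud and presomitic markers differed between the pieces in the same direction (10 of 10 called higher posteriorly in controls and 9 of 10 in DKO). Limb ectoderm markers did too, with 5 of 6 called higher posteriorly in controls (median log2 fold change 1.01) and 6 of 6 in DKO (median 1.45), and summed to 72.2 to 147 CPM in anterior and 164 to 227 CPM in posterior controls. The list was Trp63, Sp8, Dlx5, Dlx6, Krt8 and Krt18, and whether these mark limb ectoderm alone in whole pieces was not tested. Limb ectoderm is known as another source of FGF8. In the other direction, 6 of 6 neural tube markers were called lower posteriorly in both genotypes (median -0.73 in each), with sums of 384 to 484 CPM in anterior and 212 to 285 CPM in posterior controls. Of the 8 differentiating somite markers, 5 were called lower and 2 higher in controls, and 4 lower and 1 higher in DKO. The part of these marker groups in the contrasts was not tested. In bulk RNA a change in the number of cells that make a transcript and a change in RNA per cell cannot be told apart.

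**Figure D1:**
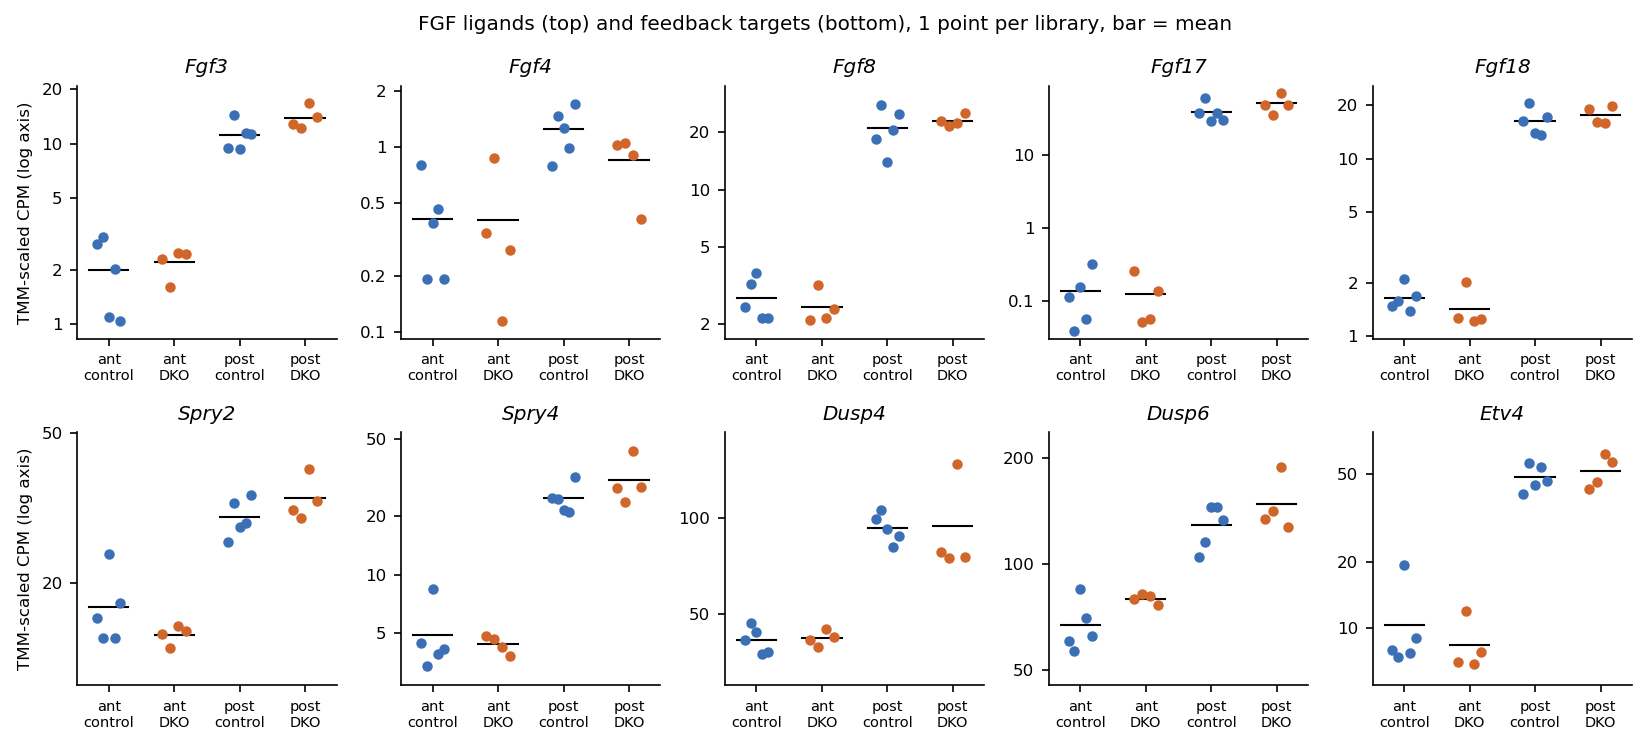
TMM-scaled CPM (log axis) of the 5 ligands (top row) and 5 feedback targets (bottom row), 1 point per library and a bar at the mean of each group, with anterior (ant) and posterior (post) groups of control (blue) and DKO (orange) embryos. The posterior points lie above all anterior points of the same genotype in every panel but that of Fgf4, and control and DKO points of the same piece overlap in every panel.

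Fgf17 (chr14:70636203-70642268, minus strand, GRCm38, like all gene coordinates here) encodes a close relative of FGF8 made in the posterior axis, and it had the widest contrast of the 10. In the anterior libraries of control embryos 1 to 5 it stood at 0.113, 0.0387, 0.156, 0.0575 and 0.324 CPM, which were 1 to 5 counts, and in their posterior libraries at 37.4, 60.6, 29.6, 37.5 and 30.6 CPM. In DKO embryos 1 to 4 the anterior values were 0.257, 0.0515, 0.0577 and 0.138 CPM (1 to 9 counts) and the posterior values 49.4, 36.01, 70.8 and 48.1 CPM. Every anterior library held at most 9 counts and every posterior library held at least 467 counts, with the highest posterior value of each genotype in its 20-somite embryo. The counts of all libraries of a group, each sum divided by its scaled depth, gave a posterior to anterior ratio of 321 in controls (95% exact interval 179 to 644) and 331 in DKO (200 to 592), intervals that cover counting error only. The fitted log2 fold changes were 8.24 (SE 0.356, adjusted p = 1.95e-08) and 8.39 (SE 0.345, adjusted p = 3.81e-07). They rest on few anterior counts: leaving out 1 embryo at a time gave 7.69 to 8.89 in controls and 8.02 to 9.07 in DKO, the highest values without control embryo 5 and without DKO embryo 1.

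Fgf8 (chr19:45736798-45742915, minus strand) encodes the ligand best known for holding the posterior presomitic mesoderm undifferentiated. Its anterior control values were 2.44, 3.22, 3.66, 2.13 and 2.14 CPM and its posterior control values 18.3, 27.8, 13.97, 20.4 and 24.7 CPM. In DKO it stood at 2.09, 3.19, 2.14 and 2.38 CPM in the anterior and 22.9, 21.4, 22.3 and 25.2 CPM in the posterior libraries. The lowest posterior library, of control embryo 3 with 24 somites, was still above the highest anterior one, and the DKO posterior values lay inside the control range. The posterior level was 7.74-fold higher in controls (log2 2.95, SE 0.211, adjusted p = 8.12e-07) and 9.41-fold higher in DKO (log2 3.23, SE 0.147, adjusted p = 7.87e-07).

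Fgf18 (chr11:33117430-33147400, minus strand) belongs to the same ligand subfamily as Fgf8 and Fgf17. It stood at 1.47, 1.59, 2.10, 1.38 and 1.68 CPM in anterior control and 16.2, 20.5, 14.02, 13.6 and 17.2 CPM in posterior control libraries. The DKO values were 1.26, 2.01, 1.21 and 1.24 CPM in the anterior and 18.9, 16.1, 15.9 and 19.8 CPM in the posterior piece. The highest anterior libraries were those of control embryo 3 and DKO embryo 2, and no anterior library reached the posterior range. Posterior Fgf18 was 9.99-fold higher in controls (log2 3.32, SE 0.155, adjusted p = 3.61e-08) and 12.5-fold higher in DKO (log2 3.64, SE 0.179, adjusted p = 1.09e-06).

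Fgf3 (chr7:144838083-144844436, plus strand) encodes a ligand that mouse mutants show to be needed for the tail and the inner ear. Its values were 2.78, 3.02, 1.09, 2.01 and 1.04 CPM in anterior control and 9.49, 14.3, 9.28, 11.5 and 11.3 CPM in posterior control libraries. In DKO they were 2.29, 1.60, 2.48 and 2.45 CPM anteriorly and 12.8, 12.3, 16.7 and 13.98 CPM posteriorly. The anterior control libraries fell into a spread of almost 3-fold with DKO inside it, while the posterior DKO libraries were all above 4 of the 5 control libraries. In the posterior piece Fgf3 was 5.45-fold higher in controls (log2 2.45, SE 0.267, adjusted p = 2.41e-05) and 6.29-fold higher in DKO (log2 2.65, SE 0.168, adjusted p = 5.27e-06).

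Fgf4 (chr7:144847367-144865243, plus strand, starting 2930 bases past the end of the annotated Fgf3 gene) encodes a ligand that acts together with FGF8 in the presomitic mesoderm. It was the lowest of the 10 genes in the posterior piece, with 8 to 34 counts per posterior library and 2 to 17 per anterior library. Its values were 0.793, 0.194, 0.389, 0.460 and 0.194 CPM in anterior control, 0.791, 1.46, 1.26, 0.987 and 1.70 CPM in posterior control, 0.343, 0.875, 0.115 and 0.277 CPM in anterior DKO and 1.02, 1.05, 0.908 and 0.410 CPM in posterior DKO libraries. The pieces overlapped in both genotypes, and control embryo 1 had nearly equal values in its pieces. In controls the difference passed the test (log2 1.59, SE 0.388, adjusted p = 0.00908), with a pooled ratio of 2.92 (95% exact interval 2.01 to 4.35, counting error only). In DKO it did not (log2 1.10, SE 0.514, adjusted p = 0.187), with a pooled ratio of 2.27 (1.53 to 3.41). That the difference was called in 1 genotype does not show a difference between them, and the region by genotype term for Fgf4 was -0.50 (SE 0.676, adjusted p = 0.999).

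Levels can be set side by side between genes only per length of transcript. Per kilobase of exon (union of all annotated exons), the 5 ligands together came to 4.46 ± 0.698 CPM per kb (SD, n = 5) in anterior control, 57.7 ± 13.5 in posterior control, 4.17 ± 0.597 (n = 4) in anterior DKO and 68.4 ± 9.41 CPM per kb in posterior DKO libraries. The make-up of that sum differed between the pieces. In anterior controls Fgf8 made up 44.7% ± 5.08 (SD, n = 5) of the ligand sum, Fgf18 31.4% ± 5.03, Fgf3 19.1% ± 7.99, Fgf4 2.89% ± 1.74 and Fgf17 1.96% ± 1.87. In posterior controls Fgf17 made up 39.8% ± 4.63, Fgf8 27.0% ± 3.49, Fgf18 24.2% ± 2.59, Fgf3 8.43% ± 0.747 and Fgf4 0.689% ± 0.217. The DKO shares were 43.6% ± 6.53 (SD, n = 4) for Fgf17, 25.1% ± 3.15 for Fgf8 and 22.1% ± 3.48 for Fgf18 in the posterior piece, and 1.88% ± 1.52, 43.3% ± 2.81 and 28.6% ± 3.37 in the anterior piece. Fgf17 thus went from the lowest mean share anteriorly to the highest mean share posteriorly in both genotypes, although in anterior control embryo 5 and anterior DKO embryo 1 its share was above that of Fgf4, and in posterior control embryo 5 its share (32.1%) was below that of Fgf8 (32.5%). In controls its shares had ranges of 0.450% to 5.18% anteriorly and 32.1% to 44.6% posteriorly.

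**Figure D2:**
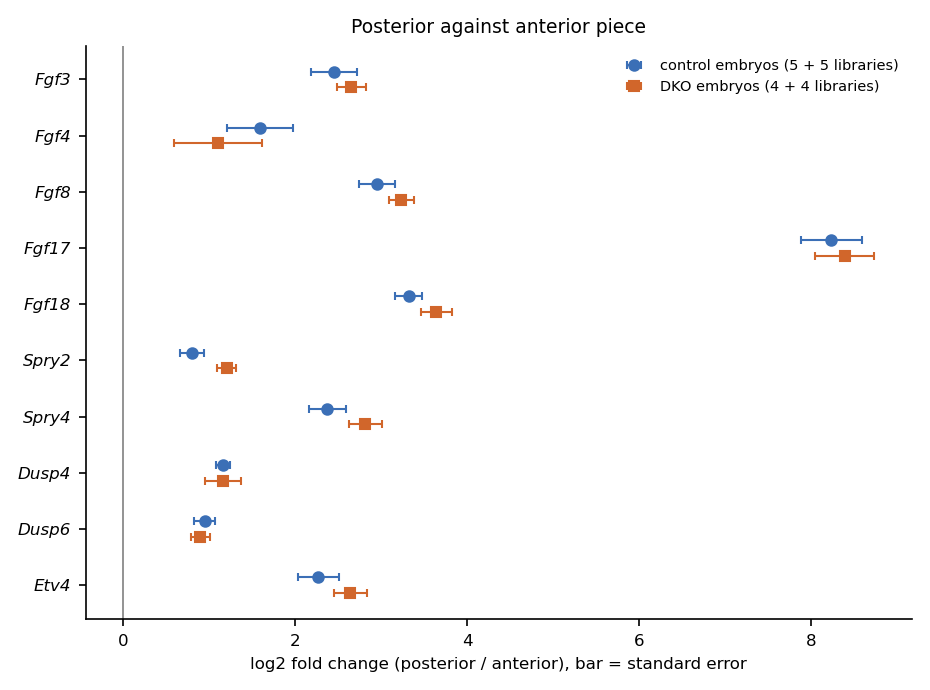
Log2 fold change of the posterior over the anterior piece for the 10 genes in control embryos (blue circles, 5 and 5 libraries) and DKO embryos (orange squares, 4 and 4 libraries), with bars for the standard error. Fgf17 stands at 8.24 and 8.39, the other ligands between 1.10 and 3.64, and the feedback targets between 0.80 and 2.82.

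Among the feedback targets, Spry4 and Etv4 had the larger contrasts and Spry2, Dusp4 and Dusp6 the smaller ones. Sprouty proteins hold back receptor tyrosine kinase signalling upstream of ERK. Spry4 (chr18:38586247-38601415, minus strand) stood at 4.42, 3.37, 8.48, 3.91 and 4.15 CPM in anterior control and 24.9, 24.6, 21.4, 21.02 and 31.7 CPM in posterior control libraries. In DKO it stood at 4.80, 4.63, 4.22 and 3.80 CPM anteriorly and 28.1, 23.6, 43.2 and 28.3 CPM posteriorly. The anterior library of control embryo 3 was well above the other anterior libraries and the posterior library of DKO embryo 3 above the other posterior ones, without closing the gap between the pieces. In the posterior piece Spry4 was 5.19-fold higher in controls (log2 2.37, SE 0.22, adjusted p = 6.43e-06) and 7.05-fold higher in DKO (log2 2.82, SE 0.193, adjusted p = 8.48e-06). The gene overlaps a pair of small RNA genes of the opposite strand, Gm27369 by 71 and Gm27804 by 119 bases, and whether the counting used strand is not given in the sources used here.

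Etv4 (chr11:101769742-101785371, minus strand) encodes an ETS transcription factor that carries FGF responses to the genome. Its values were 7.93, 7.40, 19.4, 7.70 and 9.01 CPM in anterior control and 40.8, 56.5, 44.5, 54.1 and 46.8 CPM in posterior control libraries. The DKO values were 6.98, 11.9, 6.87 and 7.78 CPM anteriorly and 42.8, 45.9, 61.9 and 57.1 CPM posteriorly. The anterior library of control embryo 3 was more than double every other anterior control library, and all posterior libraries were above it. Posterior Etv4 was 4.81-fold higher in controls (log2 2.27, SE 0.238, adjusted p = 1.73e-05) and 6.22-fold higher in DKO (log2 2.64, SE 0.192, adjusted p = 1.29e-05). Within embryos, the posterior to anterior ratio ran from 2.30 to 7.64 in controls and from 3.85 to 9.01 in DKO.

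The anterior library of control embryo 3 also stood apart in markers of limb and body wall mesenchyme, but not of limb ectoderm. The 5 limb and body wall mesenchyme markers summed to 145 CPM there and to 61.2 to 71.7 CPM in the other 4 anterior control libraries. The 6 limb ectoderm markers summed to 101 CPM there, inside the 72.2 to 147 CPM of the other anterior controls. Tbx5, a forelimb field gene, was at 12.2 CPM in it against 1.03 to 2.71 CPM, and Fgf10, the limb bud mesenchymal ligand, at 9.76 against 2.01 to 3.95 CPM. Fgf8, Fgf18, Spry2, Spry4, Dusp6 and Etv4 all had their highest anterior control value in this library, and the part of these mesenchyme markers in that was not tested. Without control embryo 3 the control contrast was 2.69 for Spry4, 2.63 for Etv4 and 0.96 for Spry2, all still called.

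Spry2 (chr14:105891947-105896819, minus strand), the other Sprouty gene of the set, was at 16.1, 14.3, 23.9, 14.3 and 17.6 CPM in anterior control and 25.6, 32.6, 28.1, 28.7 and 34.2 CPM in posterior control libraries. Its DKO values were 14.6, 13.4, 15.4 and 14.9 CPM anteriorly and 31.2, 29.6, 40.04 and 32.9 CPM posteriorly. The pieces did not overlap, but anterior control embryo 3 came close to the lowest posterior control library. The posterior level was 1.74-fold higher in controls (log2 0.80, SE 0.138, adjusted p = 0.000924) and 2.30-fold higher in DKO (log2 1.20, SE 0.107, adjusted p = 4.06e-05).

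Dusp6 (chr10:99263231-99267489, plus strand) encodes a cytoplasmic phosphatase that removes the activating phosphates of ERK. It was at 60.3, 56.5, 84.8, 70.2 and 62.3 CPM in anterior control and 105, 115, 144, 145 and 133 CPM in posterior control libraries. In DKO it was at 79.1, 82.1, 81.1 and 76.1 CPM anteriorly and 134, 141, 188 and 127 CPM posteriorly. The anterior DKO libraries lay within a narrow band that was above 4 of the 5 anterior controls, and the posterior library of DKO embryo 3 was the highest of all. The posterior level was 1.93-fold higher in controls (log2 0.95, SE 0.119, adjusted p = 7.67e-05) and 1.86-fold higher in DKO (log2 0.90, SE 0.112, adjusted p = 0.000331).

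Dusp4 (chr8:34807297-34819894, plus strand) encodes a nuclear phosphatase of the same family. Its control values were 41.5, 46.95, 44.1, 37.6 and 38.1 CPM anteriorly and 99.1, 106, 92.4, 81.1 and 87.8 CPM posteriorly. Its DKO values were 41.5, 39.5, 45.04 and 42.4 CPM anteriorly and 78.2, 75.03, 148 and 75.4 CPM posteriorly. The 3 posterior DKO libraries other than that of embryo 3 were below all 5 posterior controls, and embryo 3 was above all of them. The posterior level was 2.24-fold higher in controls (log2 1.16, SE 0.082, adjusted p = 7.37e-07) and 2.23-fold higher in DKO (log2 1.16, SE 0.205, adjusted p = 0.00268). Within control embryos the ratio was even, from 2.10 to 2.39, and in DKO it ran from 1.78 to 3.28.

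Per kilobase, the phosphatases had the highest mean levels in every group, with the ranges of Dusp4 and Fgf17 overlapping in both posterior groups. In posterior controls the order was Dusp6 (41.0 CPM per kb), Dusp4 (34.0), Fgf17 (23.2), Etv4 (15.6), Fgf8 (15.6), Spry2 (14.3), Fgf18 (13.8), Spry4 (5.20), Fgf3 (4.81) and Fgf4 (0.388). Only Fgf18 and Spry4, and Fgf3 and Fgf4, were neighbours in that order whose ranges over libraries did not overlap. In anterior controls the order was Dusp6 (21.3), Dusp4 (15.2), Spry2 (8.26), Etv4 (3.31), Fgf8 (2.01), Fgf18 (1.39), Spry4 (1.02), Fgf3 (0.854), Fgf4 (0.127) and Fgf17 (0.0816). There the ranges separated Dusp6 from Dusp4, Dusp4 from Spry2, Spry2 from Etv4 and Fgf3 from Fgf4, and overlapped between the other neighbours. Fgf17 moved from the 10th place in the anterior to the 3rd place in the posterior piece. In DKO the order was the same anteriorly except that Fgf3 (0.948) stood above Spry4 (0.918), with overlapping ranges, and the same posteriorly except that Fgf8 (16.98) stood above Etv4 (16.7), also with overlapping ranges. In posterior DKO the means of Dusp4 (34.3) and Fgf17 (30.2) had overlapping ranges. Dusp4 was the higher one in DKO embryos 2 (27.4 against 21.3) and 3 (53.8 against 41.9), and Fgf17 in DKO embryos 1 (29.2 against 28.5) and 4 (28.51 against 27.5). With the longest transcript as length, Fgf18 stood above Spry2 in both posterior groups (15.03 against 14.3 CPM per kb in controls) and Etv4 above Fgf8 in posterior DKO (21.7 against 19.6).

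The contrast held in single embryos. In 9 of 9 embryos the posterior value was above the anterior value for every gene but Fgf4, and for Fgf4 it was so in 8 of 9. The ratio within an embryo ran from 3.82 to 11.6 in controls and 6.69 to 10.95 in DKO for Fgf8, and from 6.68 to 12.9 and 8.03 to 15.9 for Fgf18. For Spry2 it ran from 1.18, in control embryo 3, to 2.28 in controls and from 2.14 to 2.61 in DKO.

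The study's main question was what loss of Meis1 and Meis2 changes, and none of the 10 genes was called between DKO and control in either piece. In the posterior piece 0 of 10 passed edgeR's test (0.0126% of all genes tested did) and 0 of 10 had an unadjusted p under 0.05 (11% did). In the anterior piece 0 of 8 passed (0.0394% of all genes tested), and 1 of 8, Dusp6, had an unadjusted p under 0.05 (13% of all genes). Fgf4 and Fgf17 were too low for the anterior test. DESeq2 called none of the 10 in the posterior piece and none of the 8 it tested in the anterior piece. Control and DKO values overlapped for every one of the 10 genes in both pieces, where 4.27% of all genes in the posterior and 5.08% in the anterior piece did not overlap.

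In the posterior piece 9 of the 10 estimates were above 0, all but that of Fgf4, and 52.4% of all genes tested were above 0. The median was 0.15 on the log2 scale against 0.011 over all genes. Fgf17 had the largest positive estimate, at 39.1 ± 12.6 CPM (SD, n = 5) in control and 51.1 ± 14.5 (SD, n = 4) in DKO (log2 0.38, SE 0.225, adjusted p = 0.517). Fgf3 was at 11.2 ± 2.04 and 13.95 ± 1.97 CPM (log2 0.32, SE 0.145, adjusted p = 0.456), and Spry4 at 24.7 ± 4.30 and 30.8 ± 8.58 CPM (log2 0.32, SE 0.175, adjusted p = 0.501). The 95% intervals of the DKO to control ratio were 0.924 to 1.83 for Fgf17, 0.842 to 1.41 for Fgf8, 0.884 to 1.33 for Fgf18, 0.998 to 1.55 for Fgf3 and 0.423 to 1.16 for Fgf4. The intervals of the feedback targets were 0.946 to 1.33 for Spry2, 0.953 to 1.62 for Spry4, 0.757 to 1.34 for Dusp4, 0.946 to 1.40 for Dusp6 and 0.880 to 1.30 for Etv4. Each interval holds 1, and each leaves room for a rise of more than 10%. Those of Fgf4, Dusp4, Fgf8, Etv4 and Fgf18 also leave room for a fall of more than 10%. All 10 bud and presomitic markers also had estimates above 0 there, with a median of 0.28 and none called, while 7 of the 8 differentiating somite markers were below 0, with a median of -0.27. Estimates were also above 0 for 6 of 6 limb ectoderm markers (median 0.33), 6 of 6 neural tube markers (median 0.30) and 6 of 6 primitive erythroid markers (median 0.52, 5 of them with an unadjusted p under 0.05), none called. They were above 0 for 0 of 5 pharynx and heart markers (median -0.39), 0 of 5 endothelium markers (median -0.22) and 1 of 4 limb and body wall mesenchyme markers (median -0.37), none called either. The summed limb ectoderm markers did not overlap, at 235 to 310 CPM in posterior DKO and 164 to 227 CPM in posterior control libraries. The part of these marker groups in the values of the 10 genes was not tested.

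**Figure D3:**
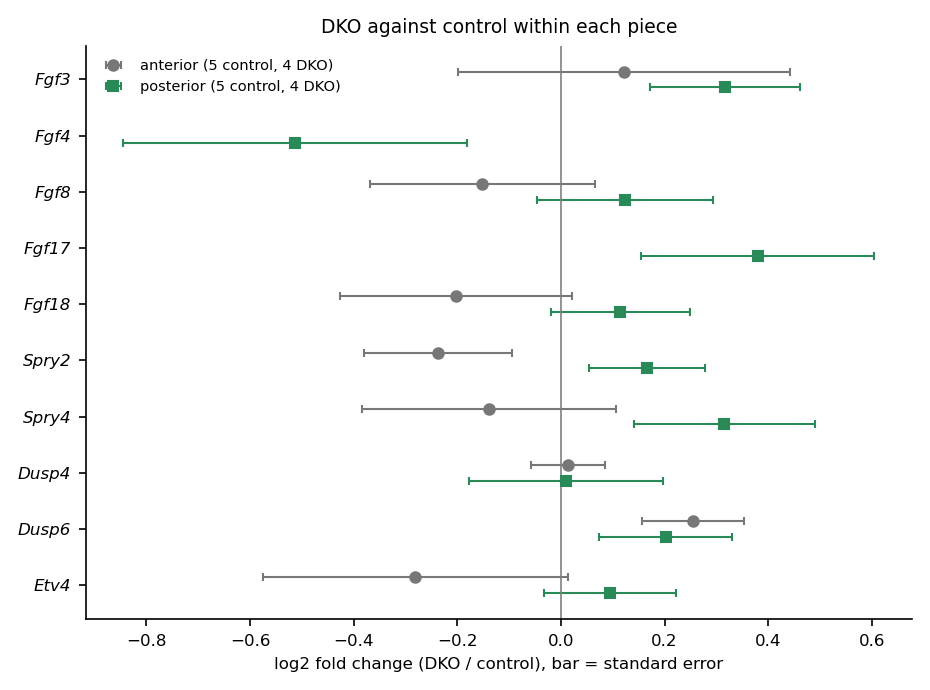
Log2 fold change of DKO over control for the 10 genes in the anterior piece (grey circles) and the posterior piece (green squares), with bars for the standard error and 5 control and 4 DKO libraries in each. Fgf4 and Fgf17 have no anterior estimate. Posterior estimates are above 0 for all but Fgf4 (-0.51), and none passed the test.

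A single library carried much of the spread. DKO embryo 3, with 20 somites, had the highest posterior value of all 9 posterior libraries for Fgf3, Fgf17, Spry2, Spry4, Dusp4, Dusp6 and Etv4, 7 of the 10 genes. Its bud markers were the highest too, at 730 CPM, and its differentiating somite markers the lowest, at 176 CPM against 310 to 407 CPM in posterior controls. Without it, 8 of the 10 posterior estimates were above 0 with a median of 0.089. The estimate of Fgf17 was then 0.18, below that of Fgf3 at 0.22, those of Spry4, Spry2 and Dusp6 were 0.11, 0.070 and 0.064, that of Etv4 was 0.0012, those of Fgf8 and Fgf18 were slightly larger than before, at 0.14 and 0.16, and that of Dusp4 went from 0.0094 to -0.29 (adjusted p = 0.310).

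In the anterior piece 5 of the 8 estimates were below 0, with a median of -0.15 against 0.00014 over all genes. Without control embryo 3, 4 were above and 4 below 0, with a median of 0.0056. Dusp6 was at 66.8 ± 11.2 CPM (SD, n = 5) in control and 79.6 ± 2.65 (SD, n = 4) in DKO (log2 0.26, SE 0.0981, unadjusted p = 0.0246, adjusted p = 0.309 in edgeR's test). Without control embryo 3 its estimate was 0.35 (adjusted p = 0.111). The other estimates were -0.28 for Etv4, -0.24 for Spry2, -0.20 for Fgf18, -0.15 for Fgf8, -0.14 for Spry4, 0.013 for Dusp4 and 0.12 for Fgf3. Those of Etv4 and Spry4 turned to 0.064 and 0.14 without control embryo 3, the library with the high limb mesenchyme markers. The anterior intervals of the ratio were 0.646 to 1.25 for Fgf8, 0.618 to 1.22 for Fgf18, 0.668 to 1.77 for Fgf3 and 0.905 to 1.13 for Dusp4. They were 0.683 to 1.05 for Spry2, 0.624 to 1.32 for Spry4, 0.525 to 1.29 for Etv4 and 1.03 to 1.39 for Dusp6. Only that of Dusp6 does not hold 1, with no adjustment over genes. The sums of 4 marker lists did not overlap between the genotypes in the anterior piece, though no marker of these lists was called. Neural tube markers summed to 508 to 548 CPM in DKO and 384 to 484 CPM in control libraries (6 of 6 estimates above 0, 5 with an unadjusted p under 0.05). Gut endoderm markers summed to 59.3 to 67.6 and 48.3 to 56.2 CPM, and differentiating somite markers to 243 to 325 and 327 to 375 CPM. Limb and body wall mesenchyme markers summed to 51.3 to 56.9 CPM in DKO and 61.2 to 145 CPM in control libraries. Of their tested estimates 0 of 4 were above 0, with a median of -0.98 that includes control embryo 3, at 145 CPM. The 4 controls other than embryo 3, at 61.2 to 71.7 CPM, also lay above every DKO library. Sums of the other lists overlapped between the genotypes. Of these, bud and presomitic markers had 4 of 5 tested estimates above 0 (median 0.25, 2 with an unadjusted p under 0.05) and limb ectoderm markers 5 of 5 (median 0.13). Primitive erythroid markers had 0 of 6 above 0 (median -0.67) and endothelium markers 0 of 5 (median -0.16), none called. The part of all these lists in the values of Dusp6 and the other genes was not tested.

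Whether the contrast between the pieces differed with genotype was tested by the interaction term over all 18 libraries. This fit held no term for the embryo, so the pieces of an embryo entered as independent libraries. None of the 10 genes passed edgeR's test, and 0% of all genes tested did; DESeq2 called none of the 10 either. Of the 10, 1 gene, Spry2, had an unadjusted p under 0.05 (3.45% of all genes tested), with a contrast larger in DKO by 0.40 on the log2 scale (SE 0.189, unadjusted p = 0.0465, adjusted p = 0.999). Its estimate stayed between 0.24 and 0.50 when any 1 embryo was left out. With the embryo as block it was 0.38 (adjusted p = 0.851 in edgeR's test), and that of Spry4 was 0.37 (adjusted p = 0.865). In the fit without the block, the other estimates ran from -0.50 for Fgf4 to 0.44 for Spry4, and both depended on single embryos. That of Fgf4 was -1.05 without control embryo 1 and -0.0093 without DKO embryo 2, and that of Spry4 was 0.12 without control embryo 3. Over all embryos left out in turn, the estimate ran from 0.012 to 0.36 for Fgf3, 0.048 to 0.46 for Fgf8 and 0.17 to 0.55 for Fgf18. In the same term 6 of 6 primitive erythroid markers were above 0 (median 1.19, 5 with an unadjusted p under 0.05), as were 5 of 6 limb ectoderm markers (median 0.23), while 1 of 5 pharynx and heart markers was (median -0.47), none called. Bud and presomitic markers were above 0 for 6 of 10 (median 0.14, 1 with an unadjusted p under 0.05) and differentiating somite markers for 2 of 8 (median -0.12), none called either. Their part in the interaction estimates was not tested.

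The embryos spanned 20 to 24 somites, several hours of axis elongation, so that the values could be set against developmental age, with genotype in the model. In the posterior piece all 10 slopes were below 0, where 48.7% of all genes tested were below 0, and none of the 10 passed edgeR's test (0.0126% of all genes tested did). An unadjusted p under 0.05 was found for 4 of the 10 (6.42% of all genes). The steepest slope was that of Fgf17, -0.22 on the log2 scale per somite (SE 0.0346, unadjusted p = 5.7e-05, adjusted p = 0.13). In posterior controls it was at 60.6 CPM at 20 somites, 37.5 at 21, 37.4 and 30.6 at 23 and 29.6 CPM at 24 somites, and in posterior DKO at 70.8 CPM at 20, 49.4 at 22, 48.1 at 23 and 36.0 CPM at 24 somites. At each somite number held by both genotypes the DKO value was the higher one. With somite number as covariate the DKO against control estimate of Fgf17 was 0.39 and did not pass (adjusted p = 0.247 in edgeR's test). The other slopes with an unadjusted p under 0.05 were -0.13 for Dusp4 (SE 0.0498), -0.12 for Fgf3 (SE 0.0337) and -0.094 for Etv4 (SE 0.0334). Without DKO embryo 3 that of Dusp4 was -0.021.

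**Figure D4:**
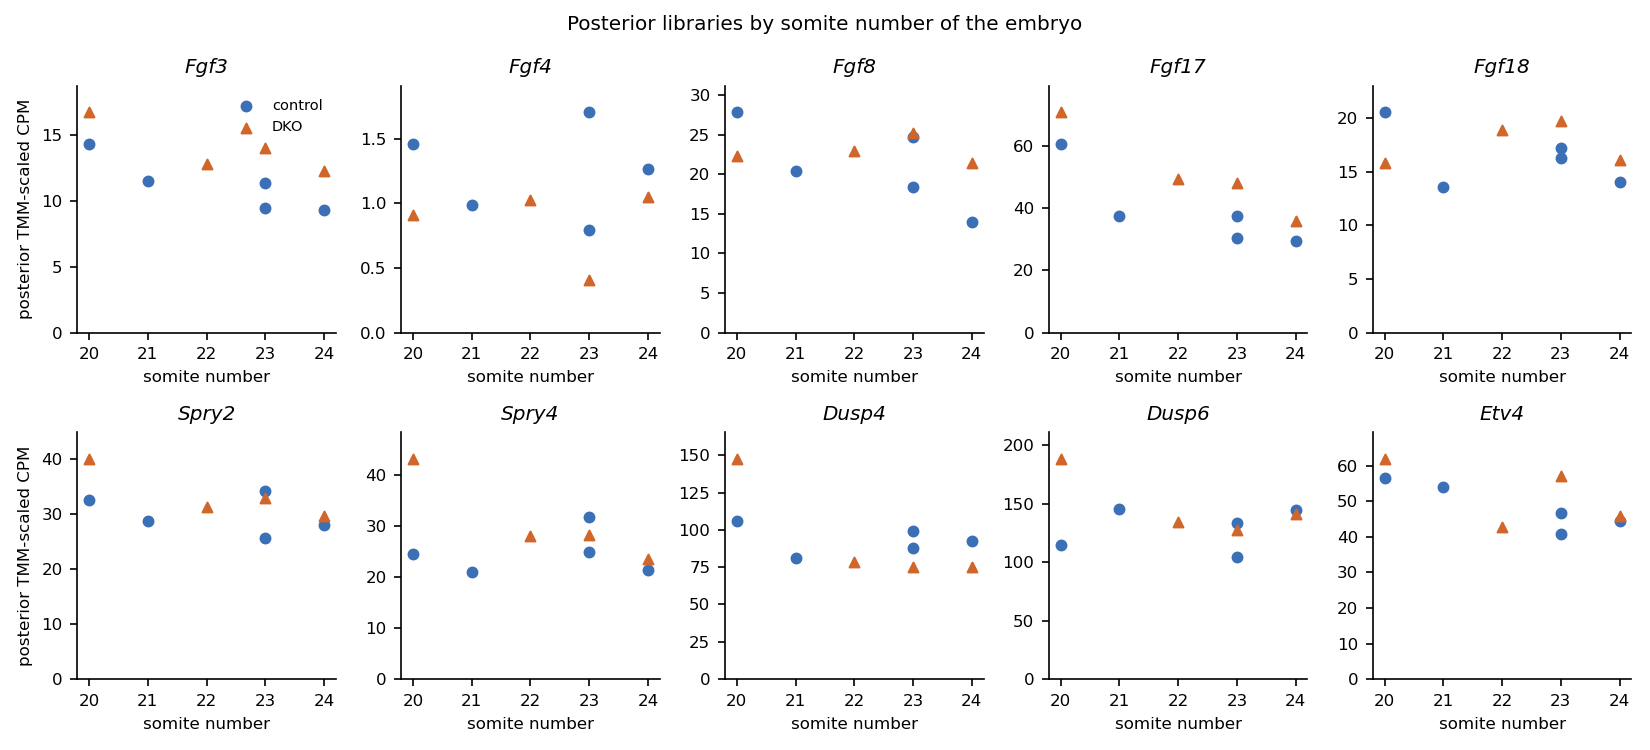
TMM-scaled CPM of the 10 genes in the 9 posterior libraries against the somite number of the embryo, for control (blue circles) and DKO (orange triangles). The Fgf17 values go from 60.6 and 70.8 CPM in the 20-somite embryos to 29.6 and 36.0 CPM in the 24-somite embryos, and Dusp4 is high mainly in the 20-somite DKO embryo, at 148 CPM.

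The slope of Fgf17 passed with DESeq2 (adjusted p = 6.29e-06), without the filter on low counts (adjusted p = 0.00958), without DKO embryo 4 (adjusted p = 0.0438) and without control embryo 4 (adjusted p = 0.031). Without both 20-somite embryos it was -0.14 (adjusted p = 0.9999), and 3 of the 10 slopes were then above 0. Bud markers had values in the same order: they summed to 663 and 730 CPM in the posterior libraries of the 20-somite embryos and to 371 to 539 CPM in the other 7, and all 10 of their slopes were below 0 with a median of -0.15. Their part in the slopes of the FGF genes was not tested. In the anterior piece 0 of 8 slopes passed edgeR's test (0.0328% of all genes tested). There 6 of the 8 slopes were above 0, as were 50.8% of all genes tested. Etv4 had the only unadjusted p under 0.05 there (12.9% of all genes), with a slope of 0.23 (SE 0.068, unadjusted p = 0.00609, adjusted p = 0.189), and it passed with DESeq2 (adjusted p = 0.0414). Without control embryo 3, which has 24 somites and the highest anterior Etv4 value, that slope was 0.13 (adjusted p = 0.349).

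The rest of the FGF pathway, 64 listed genes, was measured in the same fits. In controls 56 were tested, of which 15 were higher and 5 lower posteriorly, and 57 were tested in DKO embryos, of which 12 were higher and 6 lower, with medians of 0.021 and 0.0047. Over all genes tested, 25.4% were called in controls, 12.1% as higher, and 18.5% in DKO, 8.76% as higher, and the counts of the lists that follow are to be read against these shares. Of the 12 other feedback regulators and ETS factors, 7 were higher in controls and 6 in DKO, and none lower. Il17rd, which encodes the receptor-level inhibitor SEF, rose from 37.4 ± 8.64 to 138 ± 16.6 CPM (SD, n = 5) in controls (log2 1.88) and by 2.30 in DKO. Etv5, the partner of Etv4, rose from 23.9 ± 5.33 to 84.1 ± 9.58 CPM (log2 1.82, and 2.03 in DKO), Spred3 by 1.63 and 1.56, Spry1 by 1.21 and 1.54, and Spred2 by 0.64 and 0.55.

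Among the receptors and co-receptors 2 were higher and 1 lower in controls, of 6 tested, and 3 and 1 in DKO. Fgfr3 fell from 79.5 ± 10.4 in the anterior to 24.3 ± 5.61 CPM (SD, n = 5) in the posterior piece of controls (log2 -1.71, and -1.72 in DKO). Fgfr1, the main receptor of the presomitic mesoderm, rose by 0.50 in controls and 0.51 in DKO, and the decoy-like receptor Fgfrl1 by 0.52 and 0.53. Of the other secreted ligands, 1 of 6 tested in controls was higher, Fgf9, which went from 0.995 ± 0.364 to 8.02 ± 1.93 CPM (log2 2.98 in controls and in DKO), and 2 were lower. In DKO 1 of 7 tested was higher and 1 lower. Of the 11 genes of heparan sulfate synthesis and editing, 4 were higher and 0 lower in controls, and 2 higher and 1 lower in DKO. Sulf1, an extracellular sulfatase, was among those higher in both (log2 1.50, and 1.29 in DKO). Of the 17 adaptors and kinases of the ERK cascade 1 was higher and 1 lower in controls, and 0 higher and 1 lower in DKO. Between genotypes 0 of 55 of these pathway genes passed edgeR's test in either piece, with an unadjusted p under 0.05 for 11 in the anterior piece (13% of all genes tested) and 8 in the posterior piece (11% of all genes tested).

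**Figure D5:**
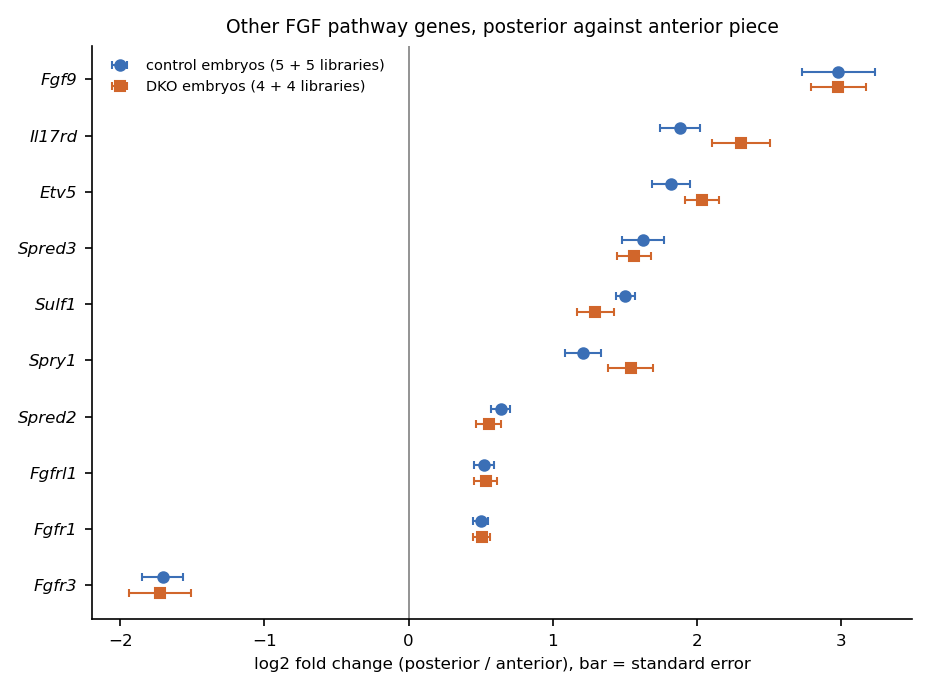
Log2 fold change of the posterior over the anterior piece for the 10 other FGF pathway genes with the largest called change in controls among those with a mean of at least 50 counts, with bars for the standard error, in control (blue circles, 5 and 5 libraries) and DKO embryos (orange squares, 4 and 4 libraries). Fgf9 stands at 2.98 in both, and Fgfr3 is the only one of these 10 below 0, at -1.71 and -1.72.

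The genes whose profile over the 18 libraries was most like that of each member were found by Pearson's r of log2 CPM among 12551 genes, as a description in which the points share the pieces, embryos and library depths. For Fgf17 they were T (r = 0.991), Rftn1 (0.991) and Tbx6 (0.991), where T and Tbx6 encode T-box factors of the bud and presomitic mesoderm. For Fgf18 they were Evx1os (0.993), Gad1 (0.993) and Tbx6 (0.992), and for Fgf8 Gad1 (0.988), Plp2 (0.988) and Gm53 (0.986). Fgf3 was most like Maff (0.987), Sall4 (0.981) and Cldn9 (0.977). Fgf4, with its low counts, had no gene above the 0.905 of Chst15. Etv4 was most like Hoxd8 (0.989), Hoxa9 (0.988) and Cyp26a1 (0.987), Spry4 like Itgb5 (0.985), Hoxa7 (0.982) and Hoxa9 (0.981), and Spry2 like Hoxd8 (0.967), Il17rd (0.963) and Hoxd9 (0.962). Dusp4 was most like Tln2 (0.978), Greb1 (0.975) and Igf1r (0.969), and Dusp6 like Ccnjl (0.974), Pcdh7 (0.960) and Epha2 (0.956). With the mean of each group removed, the r of Fgf17 with T was 0.40 and with Tbx6 0.25, while that of Etv4 with Hoxd8 was 0.88 and of Fgf3 with Maff 0.87.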

How the data were processed

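Per the file headers, the values as deposited are expected counts from RSEM, 1 row per Ensembl gene, for 18 libraries that the labels' protocols give as single-end reads of 61 bases. Per the submitters' processing notes the tools were CASAVA, cutadapt and RSEM with build GRCm38. The aligner and the use of strand are not given in the sources used here. The members and lists were chosen with earlier results of these data known.

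Expected counts were rounded to whole numbers and tested with edgeR 4.0.16 in R 4.3.3 (filterByExpr, TMM, glmQLFit and glmQLFTest, Benjamini-Hochberg over all genes tested, threshold 0.05). Standard errors are the fold change over the square root of F, and 95% intervals use the fit's degrees of freedom. Each region was fitted alone for genotype, each genotype alone for region, and all 18 libraries for the interaction. Somite number was fitted with genotype as covariate. All 10 members were named, and of other pathway genes the 10 with the largest called region change in controls at a mean of at least 50 counts. Like genes are the 3 with the highest r.

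Depth was 12.7 to 38.2 in units of 1000000 counts, and 3 counts is the floor used. Gene coordinates and exon lengths are from GENCODE M21, which held 53360 of 53465 identifiers. Libraries of an embryo were matched by genotype, sex label and somite number. Deviations from group means correlated at 0.436 to 0.768 within the 9 embryos and at -0.421 to 0.127 between other embryos. The labels say nothing of litters. In the genotype and somite fits each embryo is 1 replicate. In the region and interaction fits, outside the block alternative, the pieces of an embryo entered as independent libraries. The tests were tried on simulated data with known changes in randomly drawn genes, with all libraries independent. Of log2 changes of 0.5, 39% were called in the anterior and 28.9% in the posterior genotype test, and 19.4% in the interaction. Of log2 changes of 1, 72.7%, 62.5% and 55% were called in the same order.

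The alternatives were DESeq2 1.42.0, RLE size factors, no filter, a minimum mean of 50 counts, the embryo as block, somite number as covariate, a fit of all 18 libraries, longest-transcript length, and leaving out each embryo. Leaving out both 20-somite embryos, and the settings for each member's slope, were added after seeing the data.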

Additional observations from a re-analysis of the deposited data

Results flagged for a closer look

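For each of the 10 genes, the highest and the lowest library of each of the 4 groups were compared with the rest of the group by Dixon's ratio, 40 groups in all. Chance flags about 1 in 20 such groups, and 5 were flagged, each for a highest library.

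Fgf17 in posterior controls was highest in embryo 2, at 60.6 CPM, with the others at 29.6 to 37.5 CPM; that embryo had 20 somites. Dusp4 in posterior DKO was highest in embryo 3, also of 20 somites, at 148 CPM, with the others at 75.0 to 78.2 CPM. Control embryo 3 had the highest anterior control value of Spry4, at 8.48 CPM with the others at 3.37 to 4.42 CPM, and of Etv4, at 19.4 CPM with the others at 7.40 to 9.01 CPM. Fgf18 in anterior DKO was highest in embryo 2, at 2.01 CPM, with the others at 1.21 to 1.26 CPM, which are levels of 21 to 44 counts per library.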

How the results depend on the processing

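Counts of called members equalled those reported, or stayed within 1.5 times, under 88 of 93 alternatives. The other 5 concern somite number, with 1 member called in place of 0: Etv4 in the anterior piece with DESeq2, and Fgf17 in the posterior piece with DESeq2, without the low-count filter, without DKO embryo 4 and without control embryo 4 (0 to 1 over all embryos left out).

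Of 860 log2 values of single members under an alternative, 825 kept direction and call and 30 changed sign, none of them a call; the cause was not tested. Over embryos left out, the anterior genotype estimate ran from -0.036 to 0.33 for Fgf3, -0.25 to 0.14 for Spry4, -0.022 to 0.062 for Dusp4 and -0.49 to 0.064 for Etv4. In the posterior piece that of Dusp4 ran from -0.29 to 0.11 and was -0.032 with somite number as covariate. The interaction ran from -0.50 to 0.83 for Fgf17, -0.28 to 0.091 for Dusp4 and -0.0026 to 0.64 for Etv4. Posterior somite slopes ran from -0.079 to 0.030 for Fgf4, -0.081 to 0.033 for Fgf18, -0.13 to 0.0014 for Spry4 and -0.087 to 0.026 for Dusp6. Without both 20-somite embryos the slope was 0.037 for Dusp4 anteriorly, and 0.090 for Fgf4, 0.00042 for Spry4 and 0.041 for Dusp4 posteriorly.

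The block pairing the libraries of an embryo left 10 members called in controls and 9 in DKO and changed no member's call; over all genes it called 5136 in place of 3884 in controls. With DESeq2 the genotype calls over all genes rose from 6 to 296 anteriorly and from 2 to 161 posteriorly. Of the 40 levels per kilobase, 5 moved by more than the SD with the longest transcript as length. Depth limits Fgf4 throughout and Fgf17 in the anterior piece.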

Other observations

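Some FGF genes outside the 10, named here after their values were seen, had the opposite slope along the axis. Fgf6, known from skeletal muscle precursors, was at 2.02 ± 0.5265 CPM (SD, n = 5) in the anterior and 0.0629 ± 0.114 CPM in the posterior piece of controls, a fitted log2 fold change of -5.20 (SE 0.613, adjusted p = 4.45e-05 in edgeR's test) that rests on posterior values near the floor. In DKO it was at 2.15 ± 1.15 (SD, n = 4) and 0.109 ± 0.104 CPM (adjusted p = 0.000822). Fgf5 was at 1.62 ± 0.602 and 0.297 ± 0.277 CPM in anterior and posterior controls (adjusted p = 0.00668 in edgeR's test), and at 0.833 ± 0.376 and 0.348 ± 0.109 CPM (SD, n = 4) in DKO, where it was not called (adjusted p = 0.0643). In controls Fgf14, an intracellular homologue that is not secreted, was at 2.06 ± 0.425 and 0.662 ± 0.324 CPM (adjusted p = 0.00248 in edgeR's test), and it was called lower in DKO too (adjusted p = 0.0296).

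Fgf10, the mesenchymal limb bud ligand, did not pass between genotypes in either piece. Its values in the posterior piece were 4.96 ± 0.584 CPM (SD, n = 5) in control and 2.94 ± 0.970 (SD, n = 4) in DKO, a log2 difference of -0.77 (SE 0.220, unadjusted p = 0.0049, adjusted p = 0.338 in edgeR's test). In the anterior piece they were 4.29 ± 3.14 and 2.12 ± 0.581 CPM, with control embryo 3 at 9.76 CPM.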
